A study of Mus musculus with 97 samples.

Results

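Kinesins are motor proteins that walk along microtubules or take them apart. The kinesin genes were taken as every entry of the deposited count table whose symbol starts with Kif followed by a digit, which gave 39 entries of 37620: 37 genes and the pseudogenes Kif22-ps and Kif4-ps. They were set in classes by known role: 12 mitotic kinesins, 13 transport kinesins, 6 cilium kinesins and 6 others that mostly shape microtubule growth. Of the 39 entries, 35 passed the filter on low counts and were tested, with 11 of the mitotic and 13 of the transport kinesins among them. RNA was measured by sequencing of total RNA depleted of ribosomal RNA in mouse embryonic stem (ES) cells, cells of the early embryo kept dividing in culture, of a line labelled GFP Sox2-AID. AID stands for a degron fused to the transcription factor Sox2, by which added auxin has the protein degraded. Cells were sorted by Hoechst DNA stain and GFP into early G1, late G1 and G2. Auxin was either absent or present at 0.5 mM for 3 h, which makes 6 groups of 3 libraries, and all cells share the tagged line, serum with LIF and a Hoechst step of 20 µM for 20 min. The design used this experiment to ask whether Sox2 at mitotic chromosomes matters for expression afterwards. Loss of Sox2 protein cannot be read from RNA. What GFP reports and what expresses the auxin receptor are not given in the labels. The labels do not say whether libraries of a group came from separate cultures, so p-values measure the spread between these libraries, which may be technical.

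The mitotic kinesins build and use the spindle. Kif11 and Kif15 slide antiparallel microtubules apart and keep the spindle bipolar, Kif4 and Kif22 bind chromosome arms, Kif18a and Kif18b control microtubule ends, Kif2c depolymerises microtubules at centromeres, and Kif23, Kif20a, Kif20b and Kif14 serve the spindle midzone and cytokinesis. Transport kinesins carry cargo through interphase cells and axons: Kif5 proteins are the heavy chains of conventional kinesin, Kif3a and Kif3b are partners in the motor of intraflagellar transport, and Kif1 and Kif13 proteins and Kif16b move vesicles and organelles. Many spindle genes are known to be transcribed late in the cell cycle through a promoter element called the cell cycle genes homology region (CHR), which the MuvB complexes recognise, often together with CCAAT boxes, which NF-Y binds.

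Total counts were 24841963 to 37587322 per library. A single non-coding RNA, AC157822.1, held 15.8% to 21.2% of counts and 50.5% to 62.4% of TPM (counts per transcript length, scaled to the same total in each library), so TPM of every other gene depend on its share. CPM below are counts scaled to the library size after TMM scaling. They are compared within a gene, except where CPM are summed over a list or a gene is said to lead a list. CPM are not corrected for length, so a gene that leads a list holds the most counts, which need not mean the most transcripts. The 7 ES cell markers summed to 3456 to 4132 CPM in a library, with Pou5f1 at 820 to 996 as group means. By edgeR 1 of the 7 fell in late G1 and 1 in G2, both against early G1, with and without auxin. Of all genes, 3.75% and 1.7% fell in these comparisons without auxin, and 4.21% and 1.79% with it. With the replicate block, 3 and 3 were called without auxin, and 4 and 1 with it. Of all 16011 genes, the block called 1823 up and 1664 down, and 1247 and 1113, without auxin. With auxin it called 1749 and 1867, and 1285 and 1146. From late G1 to G2, 0 passed without auxin and 1 rose with it, where 3.48% of all genes rose. For auxin, 2 fell in late G1 and 3 in the average over phases, where 0.525% and 3.09% of all genes fell. For auxin in G2, edgeR called 0 of the 7, DESeq2 2 and the block 4. The block called 314 of all 16011 genes up and 248 down there. The 6 fibroblast markers summed to 3.06 to 7.07 CPM in a library. Of those 6, Thy1 led with group means of 2.60 to 4.63 CPM, Col3a1, Dcn and Postn had at most 0.0710, and 0 of the 3 tested passed in any phase comparison with edgeR or DESeq2 (at an unadjusted p under 0.05, 1 did in late and 1 in G2, both against early G1 with auxin). The 5 neuron marker entries summed to 120.0 to 210.5 CPM in a library, led by Stmn2 with group means of 120 to 140, while Dcx and Snap25 stayed at or under 0.173. Of the 3 neuron markers tested 0 passed in any phase comparison with edgeR or DESeq2 (0 at an unadjusted p under 0.05), and 1 or 2 passed in each with the replicate block. The 7 primitive endoderm entries (Dab2 is listed under 2 entries, 1 of them at 0 in every library) summed to 43.1 to 123.7 CPM, led by Lama1 with group means of 52.9 to 92.3, and are given beside the G2 results below. Without auxin, Ccne1, the cyclin of the G1 to S transition, had 85.7 ± 14.9, 167 ± 24.2 and 80.5 ± 13.6 CPM in early G1, late G1 and G2 (mean ± SD, n = 3), and Ccnb1, the mitotic cyclin, had 286 ± 31.5, 313 ± 29.3 and 717 ± 31.6. The untreated libraries numbered 3 stood apart in earlier results of these data, so counts without them are given too. Without auxin, in early G1, library 3 was the lowest of its group for 11 of the 11 tested mitotic kinesins, and in auxin-treated early G1 library 3 was lowest for 10 of 11.

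Promoters are shown first because most mitotic kinesins with a promoter on record hold a short element there that the choice by name did not use. RefSeq promoter windows of 250 bases before to 50 after the gene start (build GRCm38.p6) were found for 31 of the 39 members, in 35 windows, and Kif20a, Kif5b, Kif19a, Kif21b, Kif13b, Kif5a and both pseudogenes had none. The letters TTTGAA (the CHR) were searched on both strands, as were its variant TTCGAA and CCAAT (the motifs found do not share bases). TTTGAA was found in 9 of 11 mitotic windows (81.8%), in 1 of 12 transport windows (8.33%, Kif1a) and in 17.9% of all 32851 windows of the table. These 11 mitotic windows are not those of the 11 tested genes, as they include Kif2b, which failed the count filter, and lack Kif20a. CCAAT was found in 7 of 11 mitotic windows (63.6%), 4 of 12 transport windows (33.3%) and 37.4% of all windows. Both CCAAT and TTTGAA or its variant stood in 6 of 11 mitotic windows (54.5%), in 0 of 12 transport windows and in 7.52% of all.

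The stretches below run from 60 bases before to 25 bases after the start, 5′ to 3′ along the gene. They hold the mitotic promoters with TTTGAA near the start, then Kif18a and Kif3b, which rise to G2 without it in their windows. Capitals mark TTTGAA or its reverse complement TTCAAA, and CCAAT or its reverse complement ATTGG.
Kif11: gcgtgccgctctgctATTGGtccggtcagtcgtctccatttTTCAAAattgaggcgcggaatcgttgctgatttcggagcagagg
Kif15: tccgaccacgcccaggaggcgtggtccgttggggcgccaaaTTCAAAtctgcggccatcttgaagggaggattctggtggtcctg
Kif22: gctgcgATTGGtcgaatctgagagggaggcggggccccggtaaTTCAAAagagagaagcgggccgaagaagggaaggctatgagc
Kif23: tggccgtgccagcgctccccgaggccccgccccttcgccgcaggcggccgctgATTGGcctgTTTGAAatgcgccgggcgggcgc
Kif4: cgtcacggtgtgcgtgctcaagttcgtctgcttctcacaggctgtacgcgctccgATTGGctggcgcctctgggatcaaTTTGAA
Kif18b: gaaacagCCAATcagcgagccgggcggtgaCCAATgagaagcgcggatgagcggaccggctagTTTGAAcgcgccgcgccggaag
Kif20b: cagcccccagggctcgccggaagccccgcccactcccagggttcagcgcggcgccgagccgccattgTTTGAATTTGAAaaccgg
Kif18a: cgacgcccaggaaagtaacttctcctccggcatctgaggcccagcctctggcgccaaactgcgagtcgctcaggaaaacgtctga
Kif3b: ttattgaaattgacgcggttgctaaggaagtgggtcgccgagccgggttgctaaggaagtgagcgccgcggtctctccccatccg

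These are chr19:37376322-37376406 on the plus strand, chr9:122951021-122951105 on the plus strand, chr7:127042396-127042480 on the minus strand, chr9:61946775-61946859 on the minus strand, chrX:100626005-100626089 on the plus strand, chr11:102925100-102925184 on the minus strand, chr19:34922298-34922382 on the plus strand, chr2:109280678-109280762 on the plus strand and chr2:153291356-153291440 on the plus strand, each spanning the gene start and thus promoter and the first transcribed bases. Counting the first transcribed base as 1 and the base before it as -1, the leftmost base of the CHR lay at -19 in Kif11 and Kif15, -17 in Kif22, 3 in Kif23, 4 in Kif18b, 8 and 14 in Kif20b and 20 in Kif4. Kif11 and Kif15 thus carry one at the same distance, followed downstream by different sequence. Outside the printed stretch, Kif2c had it at -103 and Kif14 at -228, and Kif15 and Kif22 had a further one at -234 and -215. Kif18a and Kif2b had no TTTGAA in the window, which says only that these letters are absent from it. Among the other classes, Kif26b and Kif27 had TTTGAA, and Kif24, a cilium kinesin described below, had the variant TTCGAA at -26 and 4 CCAAT boxes.

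Per length, 10 of the 11 tested mitotic kinesins stood above every transport kinesin but Kif5b, in means over phases. Over the 9 libraries without auxin (all 3 phases), Kif20a, which moves Aurora B to the midzone, led with 14.8 ± 2.41 TPM (mean ± SD), followed by Kif5b, the widely expressed conventional kinesin, with 14.3 ± 0.836 TPM. Their ranges overlapped, at 11.6 to 17.8 and 13.1 to 15.4 TPM. Then came Kif22 with 9.98 ± 2.24 TPM and Kif11 with 9.71 ± 4.42 TPM, and every further mitotic kinesin down to Kif15 (3.32 ± 0.603 TPM) before the next transport kinesin, Kif1b (1.94 ± 0.425 TPM). Kif14 was the lowest tested mitotic kinesin, at 1.12 ± 0.286 TPM, in rank 17 beside Kif13b and Kif24. The heavy chains of the other conventional kinesins were far lower than Kif5b, with 0.659 ± 0.148 TPM for Kif5c and 0.213 ± 0.0377 TPM for Kif5a, both best known from neurons. Kif3b had 1.55 ± 0.339 TPM and its partner Kif3a 0.824 ± 0.105 TPM. Kif1a, a motor of synaptic vesicle precursors, was near the bottom with 0.0600 ± 0.0206 TPM.

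Neighbours in this order mostly cannot be separated. Between neighbours among the 35 tested genes, the ranges over the 9 libraries failed to overlap only from Kif5b to Kif22, from Kif3c (0.451 ± 0.0575 TPM) to Kif21b (0.271 ± 0.0580 TPM) and from Kif5a to Kif6 (0.0878 ± 0.0244 TPM). Part of each range is the difference between phases, which is wide for Kif11 (6.29 to 16.3 TPM) and Kif23 (1.51 to 6.23 TPM). Kif5b alone stayed within 13.1 to 15.4 TPM. Kif20a and Kif5b together held 26.4% to 34.3% of the summed TPM of all 39 entries in a library without auxin.

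**Figure D1:**
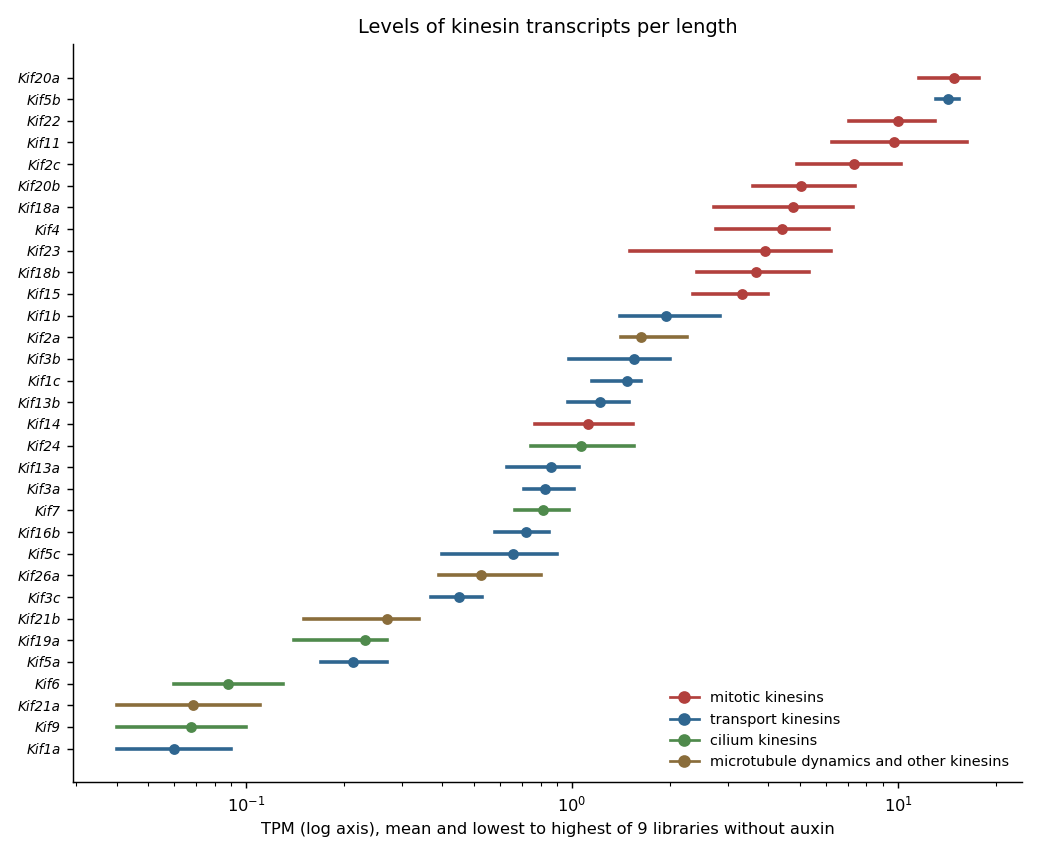
TPM on a log axis for the 32 kinesins above 0 TPM in each of the 9 libraries without auxin; dots are means, bars run from the lowest to the highest library, and colours give the class. Mitotic kinesins hold most of the upper ranks, from Kif20a at 14.8 to Kif15 at 3.32 TPM, with Kif5b at 14.3 TPM as the transport kinesin among them.

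From early to late G1 without auxin, RNA of Kif23, Kif2c, Kif4 and Kif18a fell while that of Kif15 rose. Of 11 tested mitotic kinesins 4 fell and 1 rose, and of 13 transport kinesins 3 fell. Among all 35 tested kinesins 1 rose and 8 fell, where 3.27% of the 16011 genes tested rose and 3.75% fell (edgeR quasi-likelihood test, Benjamini-Hochberg adjusted p under 0.05). The libraries of early and late G1 did not overlap, in either direction, for 23.9% of all genes tested. Among the 35 kinesins, late G1 lay wholly above for 1 and wholly below for 11. In bulk RNA, fewer cells with a transcript and less of it per cell cannot be told apart. Below, ± beside a log2 change is its SE. The median log2 change of the tested mitotic kinesins was -0.23 and that of the transport kinesins -0.10, against -6e-04 for all genes.

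Kif23, the motor of centralspindlin, changed most. Its CPM were 61.3, 70.0 and 53.2 in early G1 and 26.8, 33.0 and 29.5 in late G1 (libraries 1, 2 and 3 in order, here and below). Late G1 libraries all lay below early G1, with a log2 change of -1.05 ± 0.12 (adjusted p 3.06e-05). Kif2c, which takes microtubules apart at centromeres, had 101, 95.4 and 72.6 CPM in early and 69.5, 60.8 and 55.5 in late G1, a change of -0.53 ± 0.11 (adjusted p 0.00628). For the chromokinesin Kif4 the values were 86.9, 86.8 and 73.4 and then 62.6, 61.0 and 55.9 CPM, a change of -0.46 ± 0.08 (adjusted p 0.00182). Neither gene's groups overlapped, though early G1 library 3 came closest to late G1 for both. Kif18a, which dampens chromosome movements at metaphase, went from 61.0, 64.1 and 59.4 to 48.4, 39.5 and 46.7 CPM, by -0.46 ± 0.11 (adjusted p 0.0152), again without overlap. Kif15 moved the other way: 59.0, 71.5 and 55.1 CPM in early G1 and 80.1, 81.6 and 89.8 in late G1, a change of 0.44 ± 0.10 (adjusted p 0.0127), with every late G1 library above every early one. Kif22 (-0.30 ± 0.10, adjusted p 0.103) and Kif20a (-0.23 ± 0.08, adjusted p 0.107) missed the threshold, but with the replicate number as a block they passed, at adjusted p 0.0022 and 0.0142. That block called 1823 of all 16011 genes up and 1664 down. Kif20b, Kif11, Kif14 and Kif18b had log2 changes between -0.23 and 0.22 and did not pass.

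Among the motors that are not mitotic, Kif3b had 37.9, 37.5 and 40.9 CPM in early G1 and 27.6, 28.2 and 32.8 in late G1, a log2 change of -0.39 ± 0.11 (adjusted p 0.0347). The vesicle and mitochondria motor Kif1b went from 73.5, 72.9 and 79.9 to 56.1, 56.4 and 63.6 CPM, by -0.36 ± 0.09 (adjusted p 0.0158). For Kif5c the values were 19.4, 21.3 and 20.5 and 15.3, 16.8 and 16.5 CPM, a change of -0.34 ± 0.08 (adjusted p 0.0174). In all 3 genes late G1 lay wholly below early G1. Kif21a, which restrains microtubule growth at the cell cortex, fell from low levels of 2.54, 3.01 and 2.66 CPM to 1.24, 1.87 and 1.56, by -0.82 ± 0.24 (adjusted p 0.0464). Kif5b, by contrast, had a log2 change of 0.00 ± 0.08 (adjusted p 0.991). None of the 6 cilium kinesins passed with edgeR or DESeq2, and 1 (Kif9) had an unadjusted p under 0.05 with edgeR.

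Several of these calls were lost when a single library was left out. Kif15 lost its call without early G1 library 1 (0.0579), early G1 library 3 (0.0621) or late G1 library 3 (0.0517), where the figures in parentheses are edgeR adjusted p. Kif18a lost it without early G1 library 2 (0.0627) or late G1 library 2 (0.0859). Kif1b lost it without early G1 library 3 (0.0645), late G1 library 1 (0.0648) or late G1 library 2 (0.0703), and Kif5c without early G1 library 2 (0.0801) or late G1 library 1 (0.0874). Kif3b lost it without early G1 library 1 (0.0741), early G1 library 2 (0.0708), early G1 library 3 (0.109), late G1 library 1 (0.127) or late G1 library 2 (0.126). Kif21a lost it without any 1 of the 6 libraries, with adjusted p of 0.054 to 0.178. Kif23, Kif4 and Kif2c kept their calls in all 6 leave-outs. Without the 3 untreated libraries numbered 3, 4 kinesins were called (Kif23, Kif4, Kif2c and Kif1b), and on log2 TPM only Kif23. Leaving out early G1 library 2, late G1 library 1 or late G1 library 2 left 5 calls each.

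G2 then held more RNA of nearly every mitotic kinesin than late G1. Of 11 tested, 10 rose and Kif15 did not pass, while of 13 transport kinesins only Kif3b rose. That makes 11 of 35 tested kinesins that rose and 0 that fell, where 2.72% of all genes rose and 2.32% fell. The libraries of G2 and late G1 did not overlap, G2 being higher, for 10 of 11 mitotic kinesins and for 10.9% of all genes tested. The median log2 change was 0.75 over the tested mitotic and 0.09 over the transport kinesins, against -0.01 over all genes. Of the primitive endoderm markers, 6 of 6 tested were positive for G2 against late G1 without auxin, with a median of 0.85, 1 (Dab2) called, 4 with the replicate block, and summed levels of 53.7 to 80.9 CPM in late G1 and 85.9 to 123.7 in G2. Their part in the kinesin result was not tested. The block called 1294 of all 16011 genes up and 1247 down in this comparison.

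Kif23 rose most, from late G1 values of 26.8, 33.0 and 29.5 CPM to 78.3, 89.6 and 82.7 in G2, a log2 change of 1.49 ± 0.12 (adjusted p 1.86e-07). Kif11, the motor that keeps spindle poles apart, had 179.9, 180.2 and 133 CPM in early G1, then 167, 139.8 and 141 in late G1, and lastly 385, 359 and 322 in G2. Its early and late G1 libraries overlapped (-0.14 ± 0.12, adjusted p 0.58), and G2 stood above them, 1.25 ± 0.12 (adjusted p 3.23e-06) over late G1. Kif18a reached 112, 103 and 102 CPM in G2, 1.24 ± 0.11 (adjusted p 5.75e-07) above late G1. Kif4 reached 116, 121 and 113 CPM, a change of 0.97 ± 0.08 (adjusted p 3e-07), and Kif2c 128, 122 and 110.5 CPM, a change of 0.96 ± 0.11 (adjusted p 1.77e-05). For these 5 genes the lowest G2 library stood above the highest late G1 library.

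The other cytokinesis motors rose less. Kif20b had 134, 132 and 101 CPM in early G1, then 111, 102 and 101 in late G1, and lastly 181, 189 and 159 in G2, a G2 against late G1 change of 0.75 ± 0.11 (adjusted p 0.000411). Kif14, which works with citron kinase, had 42.5, 47.9 and 32.7 CPM in early G1, then 38.0, 40.8 and 42.3 in late G1, and lastly 56.7, 63.1 and 63.9 in G2, a change of 0.60 ± 0.12 (adjusted p 0.00469). In both genes early and late G1 overlapped and G2 stood above them. Kif18b, a partner of Kif2c at microtubule ends, had 40.8, 48.6 and 31.1 CPM in early G1, then 44.1, 50.1 and 46.0 in late G1, and lastly 74.4, 74.8 and 73.4 in G2, and differed by 0.67 ± 0.16 (adjusted p 0.0207). Its call was lost without late G1 library 1 (0.0809), late G1 library 3 (0.0616), G2 library 1 (0.0618) or G2 library 2 (0.0645). Kif22, which pushes chromosome arms away from poles, had 91.5, 98.9 and 74.9 CPM in early G1, then 76.2, 76.3 and 63.5 in late G1, and lastly 116, 114 and 108 in G2, a change of 0.64 ± 0.11 (adjusted p 0.000865). Kif20a had 247, 247 and 215 CPM in early G1, then 217, 203 and 186 in late G1, and lastly 283, 275 and 278 in G2, and the smallest change called among the 10, 0.46 ± 0.08 (adjusted p 0.00183). Neither gene's G2 libraries overlapped with late G1.

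Kif15 was the exception among the mitotic motors: its G2 values of 72.6, 84.0 and 88.4 CPM overlapped with the late G1 values, with a log2 difference of -0.04 ± 0.10 (adjusted p 0.909). Kif3b was the exception among the transport motors, at 39.3, 43.7 and 47.1 CPM in G2 and 0.56 ± 0.11 (adjusted p 0.00454) above late G1. Its partner Kif3a, with 14.4, 14.0 and 15.6 CPM in early G1, then 14.1, 13.3 and 15.3 in late G1, and lastly 12.3, 13.2 and 18.2 in G2, had a log2 change of 0.04 ± 0.17 (adjusted p 0.949). Kif5b had 395, 379 and 370.4 CPM in early G1, then 413, 364 and 369.6 in late G1, and lastly 425, 401 and 393 in G2; its G2 and late G1 libraries overlapped, and its change was 0.09 ± 0.09 (adjusted p 0.667). Kif16b, a motor of early endosomes, came nearest to a call with 0.27 ± 0.08 (adjusted p 0.0554), and passed with DESeq2 (adjusted p 0.0272), with the stricter count filter (0.0417) and with the replicate block (0.0113). With that block Kif1b (0.0142), Kif13a (0.0294), Kif13b (lower in G2, 0.0239) and Kif26a (lower in G2, 0.0452) also passed. Without the 3 untreated libraries numbered 3, 10 kinesins were called, as Kif18b lost its call (adjusted p 0.0701). On log2 TPM 6 mitotic kinesins were called (Kif23, Kif11, Kif18a, Kif4, Kif2c and Kif20b).

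**Figure D2:**
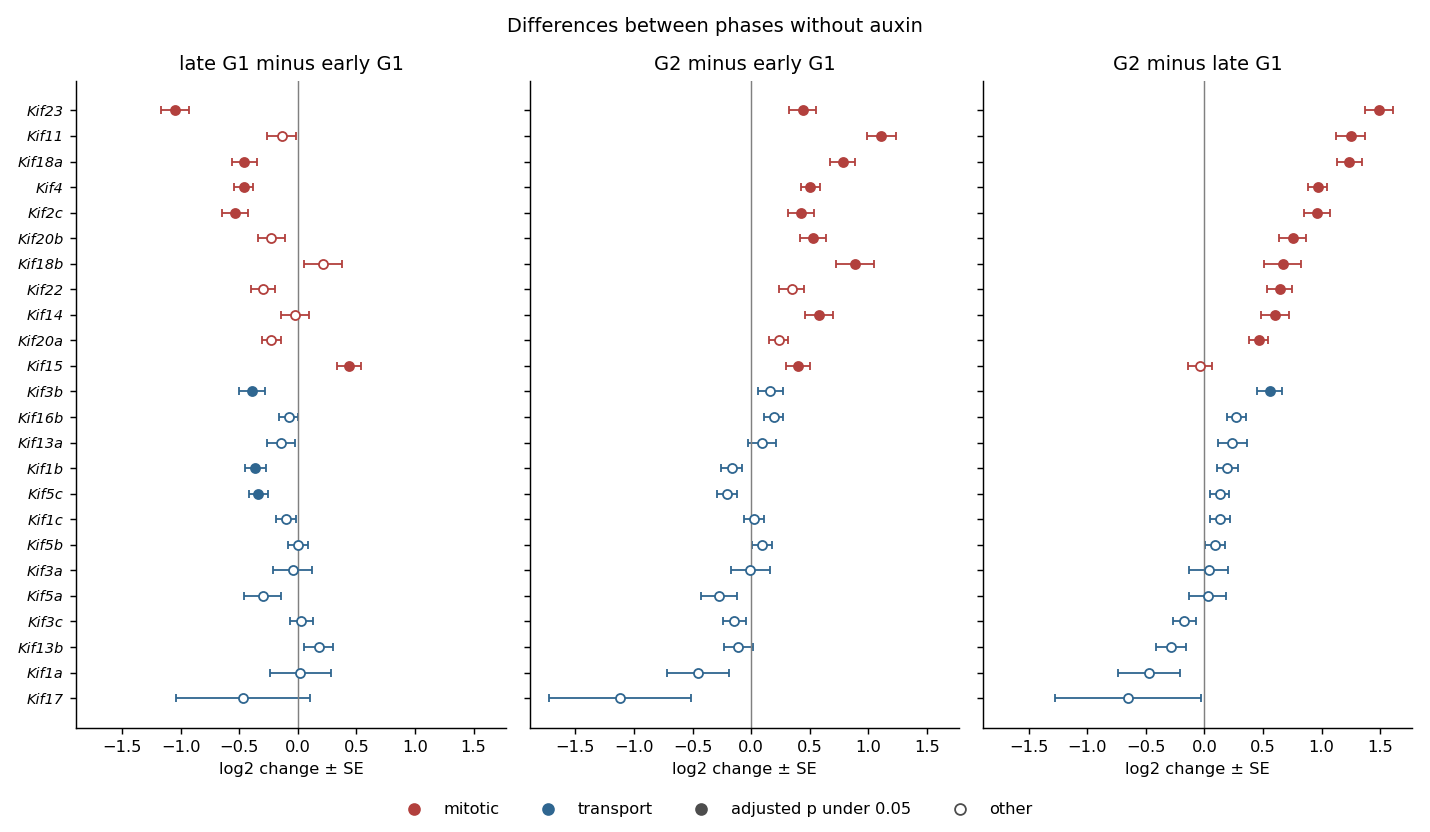
Log2 changes (dots, with SE bars) between phases without auxin for the 11 tested mitotic and 13 tested transport kinesins, ordered within class by G2 minus late G1; filled dots have an edgeR adjusted p under 0.05. Mitotic kinesins other than Kif15 sit between 0.46 and 1.49 in the G2 minus late G1 panel, while Kif3b at 0.56 is the filled transport dot.

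G2 held more mitotic kinesin RNA than early G1 as well. This change is the sum of the late against early G1 change and the G2 against late G1 change. It is therefore bound to be smaller than the latter wherever late G1 lay below early G1. Of 11 tested mitotic kinesins 9 rose, and none of the 24 other tested kinesins passed in either direction with edgeR or DESeq2, though 3 (Kif21a, Kif5c and Kif16b) had an unadjusted p under 0.05. The whole set thus had 9 of 35 that rose, where 1.9% of all genes rose and 1.7% fell. G2 libraries lay wholly above early G1 for 11 of 11 tested mitotic kinesins and for 10.2% of all genes. Of the primitive endoderm markers 6 of 6 were positive here as well, with a median of 0.58, 1 (Dab2) called and 3 with the replicate block, and their summed levels were 52.6 to 90.8 CPM in early G1. Their part was not tested here either. The block called 1247 of all 16011 genes up and 1113 down in this comparison.

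Kif11 rose most, by 1.11 ± 0.12 (adjusted p 3.08e-05), followed by Kif18b (0.89 ± 0.16, adjusted p 0.00433) and Kif18a (0.78 ± 0.11, adjusted p 0.000307). Kif14 rose by 0.58 ± 0.12 (adjusted p 0.00996), Kif20b by 0.53 ± 0.11 (adjusted p 0.0139) and Kif4 by 0.50 ± 0.08 (adjusted p 0.00118). The rise was smaller for Kif23 (0.44 ± 0.12, adjusted p 0.0409), Kif2c (0.42 ± 0.11, adjusted p 0.0385) and Kif15 (0.40 ± 0.10, adjusted p 0.0347). Kif22 (0.35 ± 0.10, adjusted p 0.076) and Kif20a (0.24 ± 0.08, adjusted p 0.13) did not pass; with the replicate block both did, at adjusted p 0.000618 and 0.0148, and Kif1b passed as lower (0.0353), while DESeq2 called Kif22 (0.0323). By these calls the mitotic kinesins can be sorted as follows, but whether the courses differ between genes was not tested. Kif23, Kif4, Kif2c and Kif18a dipped in late G1 and were highest in G2. Kif11, Kif20b, Kif14 and Kif18b did not change by the test from early to late G1 and then rose. Kif15 rose from early to late G1 and had no further change by the test. Kif22 and Kif20a passed as lower in late G1 only with the replicate block (adjusted p 0.0022 and 0.0142), and rose from late G1 to G2.

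The calls of Kif11, Kif18a, Kif4, Kif14 and Kif18b against early G1 held without any 1 library. Kif20b lost its call without early G1 library 3 (0.0768) or G2 library 2 (0.0759). Kif2c lost it without early G1 library 2 (0.0625), early G1 library 3 (0.169), G2 library 1 (0.133) or G2 library 2 (0.127), Kif23 without early G1 library 1 (0.108), early G1 library 3 (0.182), G2 library 1 (0.0663), G2 library 2 (0.169) or G2 library 3 (0.0776), and Kif15 without early G1 library 1 (0.119), early G1 library 3 (0.156), G2 library 2 (0.125) or G2 library 3 (0.108). Without early G1 library 3, the lowest of its group for these genes, 5 kinesins were called, and without G2 library 2 also 5. Without the 3 untreated libraries numbered 3 there were 4 (Kif11, Kif18a, Kif20b and Kif4), and on log2 TPM 2 (Kif11 and Kif18a).

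**Figure D3:**
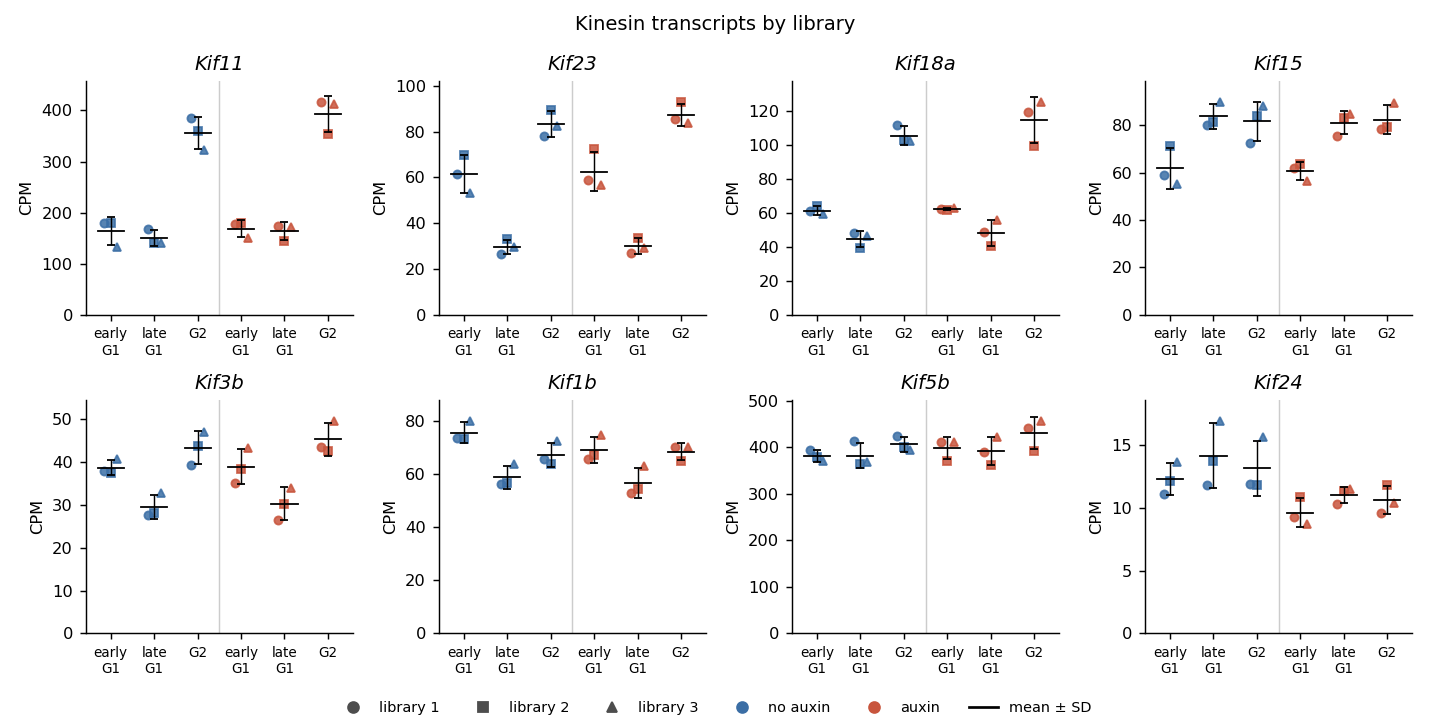
CPM of 8 kinesins in each of the 18 libraries by phase, without auxin (blue) and with auxin (red); marker shapes give the library number, and the black line and bar give the mean and SD of 3 libraries. Kif11 is at 133 to 180.2 CPM in untreated early G1 and at 322 to 385 in G2, Kif23 dips to 26.8 to 33.0 in late G1, and the means of Kif24 lie lower with auxin.

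Summed over the class, mitotic kinesins of early G1 libraries without auxin carried 63.5 ± 8.7 TPM, those of late G1 50.6 ± 3.3 and those of G2 90.0 ± 4.4 (mean ± SD, n = 3). The transport kinesins carried 25.3 ± 2.4, 22.6 ± 1.6 and 25.0 ± 1.1 TPM in the same order. Mitotic sums in G2 were above both G1 groups in every library, whereas the transport sums of early G1 and G2 overlapped. Within a library, the ratio of mitotic to transport TPM was 2.62, 2.77 and 2.15 in early G1, then 2.28, 2.32 and 2.13 in late G1 and 3.62, 3.76 and 3.42 in G2. With auxin the ratios were 2.60, 2.84 and 2.24 in early G1, then 2.35, 2.37 and 2.19 in late G1 and 3.88, 3.80 and 3.64 in G2. So the ratio in G2 exceeded that of every G1 library with and without auxin, and early and late G1 overlapped. These sums are described without a test, and since a ratio within a library cancels the share of AC157822.1, it does not depend on that RNA.

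**Figure D4:**
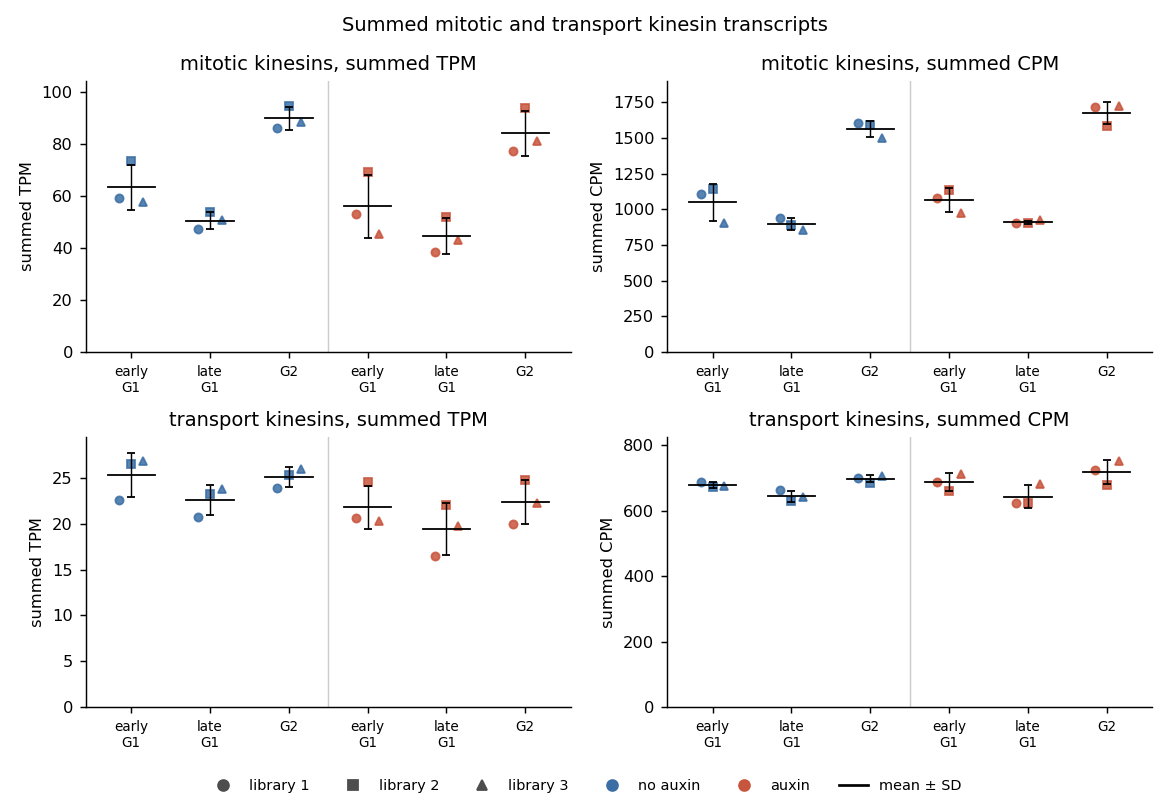
Summed TPM (left) and summed CPM (right) of the 12 mitotic (top) and 13 transport kinesins (bottom) in each library; colours, marker shapes and bars are as in the plot of single genes, and all axes start at 0. The mitotic sum is highest in G2 in both units, at 90.0 TPM and 1566 CPM without auxin, while the transport sum has group means of 642 to 717 CPM.

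Libraries with auxin gave much the same calls as those without. Both were fitted in 1 model with a shared estimate of spread, and each of the 18 libraries correlated best with its own number. The 2 sets of calls are thus not independent. From early to late G1, 1 kinesin rose and 7 fell of 35 tested, where 3.21% of all genes rose and 4.21% fell. From early G1 to G2, 11 rose and 0 fell, where 2.09% of all genes rose and 1.79% fell, and those 11 were the tested mitotic kinesins. Of 6 primitive endoderm markers, 5 were positive there, with a median of 0.19 and a lowest of -0.16. With edgeR, DESeq2 and the replicate block 0 of these markers were called. From late G1 to G2, 11 rose and 0 fell, where 3.48% of all genes rose and 2.43% fell. There 6 of 6 primitive endoderm markers were positive, with a median of 0.54, 0 called with edgeR, 1 with DESeq2 and 2 with the replicate block. The block called 1576 of all 16011 genes up and 1257 down in that comparison. Of the late against early G1 calls, 7 were shared, out of 9 without and 8 with auxin. For G2 against early G1, 9 were shared out of 9 and 11, and for G2 against late G1 11 out of 11 and 11. The calls made without auxin only were Kif21a (-0.50 ± 0.24, adjusted p 0.23 with auxin) and Kif1b (-0.29 ± 0.09, adjusted p 0.0535), both for late against early G1, and Kif1b passed with auxin too under the replicate block (0.000464), DESeq2 (0.0308) and the stricter count filter (0.0403). Those made with auxin only were Kif22 for late against early G1 (-0.35 ± 0.10, adjusted p 0.0497) and Kif20a (0.30 ± 0.08, adjusted p 0.0443) and Kif22 (0.38 ± 0.10, adjusted p 0.047) for G2 against early G1.

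With auxin, Kif23 had 58.9, 72.3 and 56.6 CPM in early G1, then 27.1, 33.8 and 29.2 in late G1, and lastly 85.5, 92.8 and 83.9 in G2. Kif11 had 177, 179.9 and 149.5 CPM in early G1, then 175, 144 and 173 in late G1, and lastly 416, 353 and 412 in G2. Kif15 had 62.1, 63.7 and 56.4 CPM in early G1, then 75.7, 83.2 and 84.7 in late G1, and lastly 78.3, 79.4 and 89.5 in G2. Kif23 was again lowest in late G1, Kif11 again overlapped between early and late G1, and Kif15 was again lowest in early G1, with no overlap there. Early and late G1 libraries with auxin did not overlap, in either direction, for 27.9% of all genes. Kif3b had 35.1, 38.3 and 43.4 CPM in early G1, then 26.5, 30.3 and 34.1 in late G1, and lastly 43.6, 42.7 and 49.7 in G2, lower in late G1 (-0.36 ± 0.11, adjusted p 0.0492) and higher in G2 than in late G1 (0.58 ± 0.11, adjusted p 0.00279). For G2 against late G1, Kif23 rose by 1.54 ± 0.12 (adjusted p 1.15e-07), Kif11 by 1.26 ± 0.12 (adjusted p 2.55e-06), Kif18a by 1.24 ± 0.11 (adjusted p 5.7e-07) and Kif20b by 0.99 ± 0.11 (adjusted p 1.91e-05). With the replicate block, Kif20a (0.00591), Kif13a (0.00415), Kif1b and Kif1c (0.0495) also fell from early to late G1 with auxin. For G2 against early G1 it added Kif3b, higher in G2 (0.0141), and lower Kif5c (0.0237) and Kif3c (0.0326). For G2 against late G1 it added Kif13a (0.00218), Kif1b (0.000781) and Kif16b (0.0497) as higher and Kif3c (0.017) and Kif19a (0.0233) as lower.

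With auxin and without 1 library, 4 calls were made for late against early G1 when early G1 library 1, 2 or 3 or late G1 library 1 or 2 was left out, and 6 for G2 against early G1 without early G1 library 1 or 3 or G2 library 3, and 7 without G2 library 1. Of the genes named for these comparisons, Kif22 lost its late against early G1 call without early G1 library 1 (0.141), early G1 library 2 (0.169), late G1 library 1 (0.146) or late G1 library 3 (0.192), and Kif3b without early G1 library 2 (0.0976), early G1 library 3 (0.19), late G1 library 1 (0.202) or late G1 library 2 (0.115). Kif15 lost it without early G1 library 1 (0.0506), early G1 library 3 (0.0737), late G1 library 2 (0.0548) or late G1 library 3 (0.0652), and Kif18a without early G1 library 1 (0.114), early G1 library 2 (0.102), early G1 library 3 (0.114), late G1 library 1 (0.107) or late G1 library 2 (0.206). Kif5c lost it whichever of the 6 treated G1 libraries was left out, and Kif2c lost its call for G2 against early G1 whichever of the 6 libraries compared there was left out. Against early G1, G2 lost the call of Kif23 without early G1 library 1 (0.123), early G1 library 3 (0.115), G2 library 1 (0.0608), G2 library 2 (0.081) or G2 library 3 (0.0625), and that of Kif15 without early G1 library 1 (0.0649), early G1 library 3 (0.0943) or G2 library 3 (0.105). It lost the call of Kif20a without early G1 library 1 (0.127), early G1 library 2 (0.0691), early G1 library 3 (0.17), G2 library 1 (0.117) or G2 library 3 (0.179), and that of Kif22 without early G1 library 1 (0.123), early G1 library 2 (0.0629), early G1 library 3 (0.189), G2 library 1 (0.116), G2 library 2 (0.104) or G2 library 3 (0.123).

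Between libraries with and without auxin, 1 kinesin passed the edgeR test without the replicate block, and only in the average over phases. With the block, Kif19a also passed in late G1 (adjusted p 0.0166), higher with auxin. In the average the block added Kif19a (0.0159) and Kif4 (0.0494), both higher with auxin. Of all 16011 genes, the block called 404 up and 548 down in late G1, and 2061 up and 1878 down in the average. The few kinesin calls added by the block therefore do not set kinesins apart from all genes. The counts that follow are without the block. In early G1 0 of 35 tested kinesins passed, where 0.0812% of all genes rose and 0.025% fell. In late G1 0 passed, where 0.493% rose and 0.525% fell, and in G2 0 passed, where 0.387% rose and 0.281% fell. At an unadjusted p under 0.05, edgeR had 2, 2 and 1 kinesins in these phases, and DESeq2 called 0 in each. Averaged over the phases, 1 kinesin fell and 0 rose, where 2.6% of all genes rose and 3.09% fell; 4 had an unadjusted p under 0.05 and DESeq2 called 1. On log2 TPM the average called 61 genes up and 716 down, against 416 and 494 with edgeR. The log2 change of every tested mitotic kinesin in the average was within 0.13 of 0, and in single phases up to 0.24 in size.

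The kinesin that fell was Kif24, which remodels centriolar microtubules and holds back cilium formation. Without auxin it had 11.1, 12.2 and 13.7 CPM in early G1, then 11.9, 13.7 and 17.0 in late G1, and lastly 11.9, 11.8 and 15.7 in G2. With auxin it had 9.27, 10.9 and 8.71 CPM in early G1, then 10.3, 11.3 and 11.5 in late G1, and lastly 9.60, 11.9 and 10.4 in G2. The groups with and without auxin did not overlap in early G1 or late G1, but did in G2, and untreated library 3 was the highest of its group in each phase. Of all genes, 11.3%, 13.7% and 11% did not overlap, in either direction, in early G1, late G1 and G2. The average change was -0.34 ± 0.08 (adjusted p 0.0218), and by phase, from early G1 to G2, it was -0.35 ± 0.15, -0.36 ± 0.15 and -0.31 ± 0.15 (adjusted p 0.839, 0.377 and 0.646). The call was lost without auxin-treated early G1 library 3 (0.0528) or auxin-treated G2 library 1 (0.053), and also without the untreated libraries numbered 3 and on log2 TPM.

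Kif19a, which shortens microtubules at cilium tips, had 1.85, 1.28 and 1.66 CPM in early G1, then 0.862, 1.50 and 1.52 in late G1, and lastly 0.871, 1.48 and 1.66 in G2 without auxin. With auxin it had 1.36, 1.87 and 3.07 CPM in early G1, then 2.10, 2.25 and 3.24 in late G1, and lastly 1.22, 1.28 and 1.96 in G2. In late G1 the groups did not overlap, with a log2 difference of 0.97 ± 0.33 (adjusted p 0.24), which did not pass; with the replicate block it did, at 0.97 ± 0.24 (adjusted p 0.0166). Kif2a, a depolymerase of spindle poles and neurons, had 33.2, 30.7 and 32.3 CPM without and 28.2, 27.0 and 30.3 with auxin in early G1, a difference of -0.17 ± 0.08 (adjusted p 0.867). The groups did not overlap, auxin being lower. Of the genes with the next smallest p, Kif1b changed by -0.13 ± 0.09 (adjusted p 0.867) in early G1, Kif14 by -0.24 ± 0.12 (adjusted p 0.497) in late G1, and Kif9 by -0.60 ± 0.30 (adjusted p 0.685) and Kif20a by 0.14 ± 0.08 (adjusted p 0.775) in G2.

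When the auxin effects of the phases were set against each other, in 3 contrasts, 0 of 35 kinesins passed, and 0% of all genes passed in either direction. No kinesin had an unadjusted p under 0.05 there, DESeq2 called 0, and 222, 222 and 218 of the 16011 genes were under it. Among the tested mitotic kinesins these differences were at most 0.24 on the log2 scale. The smallest p was that of Kif9 for G2 against late G1, where its auxin changes differed by -0.80 ± 0.43 (adjusted p 1).

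**Figure D5:**
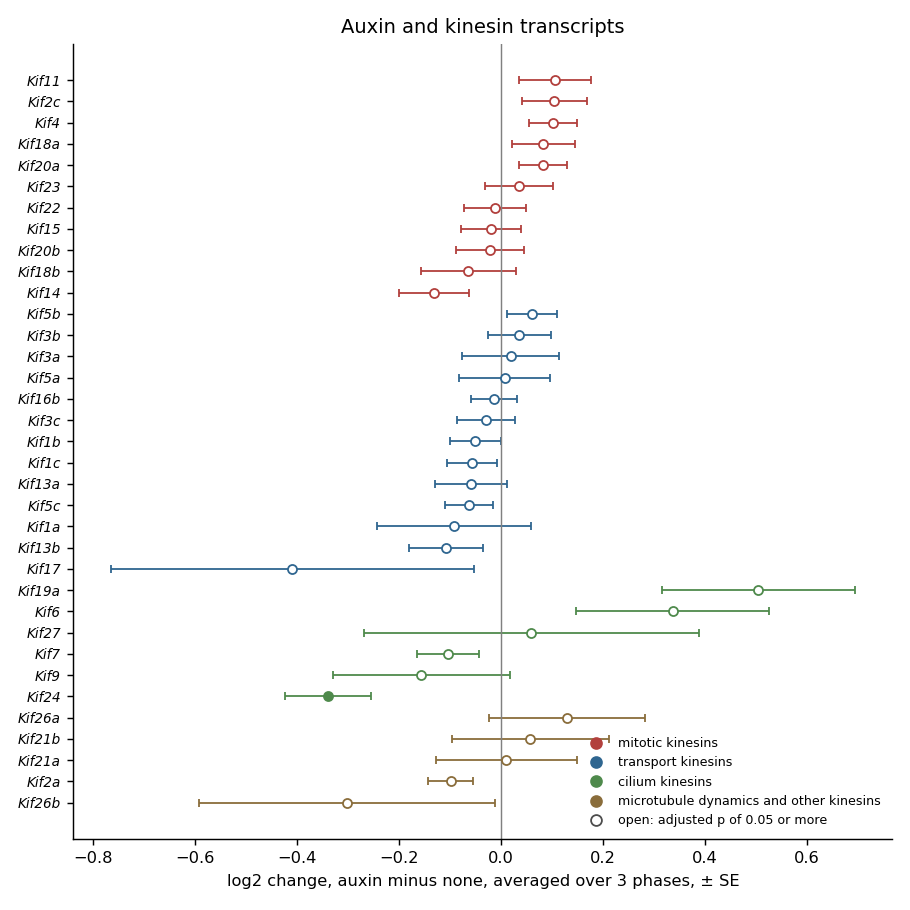
Log2 change with minus without auxin, averaged over the 3 phases (dots, with SE bars), for the 35 tested kinesins by class; the filled dot has an edgeR adjusted p under 0.05. Mitotic kinesins lie between -0.13 and 0.11, and Kif24 at -0.34 is the filled dot.

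Motors and partners outside the name rule give the setting. Cenpe, the kinesin of kinetochores, fell in late G1 (-0.75 ± 0.12, adjusted p 0.00121) and rose in G2 above late (1.35 ± 0.13, adjusted p 1.15e-06) and early G1 (0.60 ± 0.12, adjusted p 0.00991), as Kif23, Kif4, Kif2c and Kif18a did. It was not typical of the 5 tested kinesins outside the name rule. From early to late G1 without auxin 4 of the 5 had positive changes, with a median of 0.03 and a highest of 0.40. Cenpe was the 1 called there and the 1 called from late G1 to G2. From early G1 to G2, 2 were called higher, Cenpe among them. Of 13 mitotic partners of kinesins, without auxin, 2 rose and 7 fell from early to late G1, where 3.27% of all genes rose and 3.75% fell. From early G1 to G2 7 rose, where 1.9% of all genes did, and from late G1 to G2 11 rose, where 2.72% did. With the replicate block 11, 13 and 13 of them were called. Of all 16011 genes, the block called 1823 up and 1664 down, 1247 and 1113, and 1294 and 1247 in the same order. From early to late G1, Aurkb, carried by Kif20a, rose by 1.60 ± 0.16 (adjusted p 7.32e-06), and Prc1, which recruits Kif4 to the midzone, by 0.92 ± 0.11 (adjusted p 4.65e-05), while Kif4 fell. Nusap1, which bundles spindle microtubules, and Aurka, a kinase of spindle poles, changed by -1.17 ± 0.13 (adjusted p 2.36e-05) and -1.05 ± 0.13 (adjusted p 6.72e-05). In G2 against early G1, Prc1 stood 2.46 ± 0.11 (adjusted p 1.04e-10) higher and Aurkb 2.80 ± 0.16 (adjusted p 2.74e-09), more than any kinesin, with Nusap1 at 1.12 ± 0.13 (adjusted p 3.41e-05) and Incenp at 1.13 ± 0.15 (adjusted p 0.000156). In G2 against late G1, Nusap1 rose by 2.29 ± 0.13 (adjusted p 5.86e-09), Aurka by 1.94 ± 0.13 (adjusted p 3.55e-08), Prc1 by 1.54 ± 0.11 (adjusted p 5.13e-08) and Ect2 by 0.84 ± 0.08 (adjusted p 3.3e-06). Racgap1, the partner of Kif23 in centralspindlin and picked here with its values known, was lower in late G1 (-0.40 ± 0.11, adjusted p 0.0303) and rose in G2 (0.70 ± 0.11, adjusted p 0.000518).

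Among cargo partners and the opposite motor, 1 gene passed in the phase comparisons without auxin. Of all genes, 3.27% rose and 3.75% fell from early to late G1. The shares were 1.9% and 1.7% from early G1 to G2, and 2.72% and 2.32% from late G1 to G2. At these shares few calls would fall in lists of 9 and 21 genes, so their low counts do not set them apart from all genes. Of 9 light chains and adaptors, 0 passed with edgeR from early to late G1 (1 at an unadjusted p under 0.05, 1 by DESeq2) or from early G1 to G2 (0 and 0), and 1, the light chain Klc2, rose from late G1 to G2 by 0.69 ± 0.18 (adjusted p 0.0347). Of 21 tested dynein and dynactin genes, the motor for the opposite direction along microtubules, 0 passed with edgeR in any of the 3 phase comparisons without auxin, with median log2 changes of 0.0035, 0.0074 and 0.0281. At an unadjusted p under 0.05 edgeR had 2, 1 and 2 of them, DESeq2 called 1, 0 and 0, and with the replicate block 2, 2 and 2 passed. Of all 16011 genes, the block called 1823 up and 1664 down, 1247 and 1113, and 1294 and 1247. With auxin averaged over phases, Kifc1, a minus-end motor of the spindle, and the near-identical Kifc5b changed by -0.24 ± 0.06 (adjusted p 0.0248) and -0.30 ± 0.07 (adjusted p 0.0157); how reads were split between them is not stated, so they count as 1 uncertain result.

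The 4 entries under the count filter had few reads. Kif2b had 5 counts over the 18 libraries and 0 in 15 of them, Kif12 had 7 counts and 0 in 14, Kif22-ps had 4 counts and 0 in 14, and Kif4-ps had 10 counts and 0 in 15. A count of 0 allows up to 3 counts in a library, for counting error alone. Whether counting used strand is not stated, so reads of antisense or overlapping genes cannot be told apart from those of the kinesins.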

How the data were processed

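RNA was measured in 18 libraries, 6 groups of 3. Per the submitters' processing notes, STAR and RSEM are named among the tools, with build mm9, and the authors deposited 1 table of expected counts per gene, as RSEM estimates them, which held whole numbers only, and 1 of TPM (counts per transcript length, scaled to the same total). Versions, annotation, strand and filters are not given in the sources used here.

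The counts were fitted for all libraries in 1 model of group means with edgeR 4.0.16 in R 4.3.3 (TMM scaling, filterByExpr by group, robust quasi-likelihood F test, 12 residual degrees of freedom, biological coefficient of variation 0.14). P-values were adjusted by Benjamini-Hochberg over all 16011 genes that passed, with a threshold of 0.05. SEs are the log2 change over the square root of F. CPM were computed on TMM-scaled totals. Deposited TPM served for levels between genes and, as log2(TPM + 1) or log2(TPM + 0.1) with limma 3.58.1, as an alternative. Other alternatives were DESeq2 1.42.0, no filter on low counts, at least 1 CPM in 3 libraries, the replicate number as a block, each library left out, and the untreated libraries numbered 3 left out. The fits were tested on simulated data.

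Libraries of a group differed by more than sampling noise (chi-square per degree of freedom 14.7 to 53.8). Same-numbered libraries deviated together, with every pair's correlation at 0.28 or more in the phase comparisons and 0.33 or more for auxin in early and late G1, so their numbers count as pairs. For auxin in G2 the lowest was 0.06.

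Members and lists were chosen with earlier results of these data known. Per-library values are given for called kinesins, up to 10 mitotic and 6 others a comparison by size of change. Where no kinesin was called, the 3 with the smallest p are named. Of other lists, up to 4 called genes with the smallest p are named. Promoters are from RefSeq, matched by symbol. Protein sequences were not used here.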

Additional observations from a re-analysis of the deposited data

How the results depend on the processing

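Over the leave-outs of single libraries, 279 of 372 values of called kinesins kept their call and 93 lost it. Over the other settings 290 of 390 kept it, with TPM at 40 of 120, and no direction reversed in either. From early to late G1 without auxin, the 9 calls became 1 on TPM with either pseudocount, 4 without the untreated libraries numbered 3, and 5 to 7 without 1 library. For G2 against early G1 without auxin, the 9 calls became 2 on TPM with either pseudocount, 4 without the libraries numbered 3, and 5 to 8 without 1 library. For G2 against late G1 without auxin, the 11 became 6 on TPM with either pseudocount, 10 without the libraries numbered 3 and 10 to 11 without 1 library. With auxin, the 8 calls of late against early G1 became 4 with no low-count filter, 1 on TPM with either pseudocount and 4 to 6 without 1 library. The 11 of G2 against early G1 with auxin became 2 on TPM with either pseudocount and 6 to 8 without 1 library, and the 11 of G2 against late G1 with auxin became 8 on TPM with either pseudocount and 10 to 11 without 1 library. The 1 call of the auxin average became 0 on TPM with either pseudocount, 0 without the libraries numbered 3 and 0 to 1 without 1 library. The cause of these losses was not tested, though leave-outs rest on fewer samples. With the replicate block, calls were 1 up and 10 down, 11 up and 1 down, and 14 up and 2 down in the phase comparisons without auxin, 1 up and 11 down, 12 up and 2 down, and 14 up and 2 down with auxin, 1 for auxin in late G1 (Kif19a) and 3 for the auxin average (Kif24, Kif19a and Kif4). Of all 16011 genes, the block called 1823 up and 1664 down, 1247 and 1113, and 1294 and 1247 in these phase comparisons without auxin. With auxin the counts were 1749 and 1867, 1285 and 1146, and 1576 and 1257. They were 404 and 548 for auxin in late G1, and 2061 and 1878 for the auxin average. The block changed no call of auxin in early G1 or G2 or of the differences between phases. For the auxin average, whose numbers count as pairs in only part of its comparisons, each of the 18 libraries correlated best with its own number. TPM moved the median of all genes in the auxin average by -0.08 with a pseudocount of 1 and -0.16 with 0.1. The summed transport kinesins in G2 relative to early G1 without auxin came to 0.99 in TPM and 1.03 in CPM. Depth limits the 4 entries that failed the filter, with at most 10 counts over all libraries.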
